A study of Homo sapiens with 18 samples.

Results

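Saos-2 osteosarcoma cells grown flat in culture (D-2) were compared with tumors of the same cells that had grown under the skin of mice and were processed fresh (FIT). The comparison takes 6 of the 18 libraries of the series, 3 D-2 and 3 FIT, chosen by their labels alone, and it covers 19513 genes. Saos-2, which the labels spell Soas-2, is an established human osteosarcoma line, and the genotype of both groups is given as WT. The D-2 cells were cultured in vitro as 2D cells and were taken on day 14, with neither a gel nor a host. The FIT cells were mixed with Matrigel, a basement membrane extract, and injected under the skin of the axilla of young female BALB/c nude mice. They grew in vivo, and the transplanted tumor was taken on day 14 without any culture of the tissue. Nude mice lack T cells but keep their other host cells, so the tumor tissue can hold mouse RNA. The labels do not say whether replicates came from separate mice or dishes, so the p-values measure only the spread between these samples. Another 6 libraries of day 14 gave values to set beside these, 3 of the same cells mixed in Matrigel and cultured (D-3) and 3 of 3D cell-printed tissue (DP-3).

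A flat culture offers a stiff surface, free access to nutrients and serum growth factors, and only neighbours of the same kind. In a tumor the cells meet matrix on all sides, gradients of oxygen and nutrients, and host vessels, macrophages and fibroblasts. Pathways that read these conditions include the mitotic program, the mechanical sensors YAP and TEAD, the heat shock and oxidative stress programs, the interferon response and the genes that build and cut the extracellular matrix.

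The D-2 libraries held between 73805740 and 79082786 estimated counts, and the FIT libraries held 64271701, 65871171 and 23721666, so that FIT replicate 3 was the shallowest. The share of counts on the mitochondrial genome was 2.13% to 3.96% in D-2 and 5.04% to 6.21% in FIT. The bone matrix gene SPARC was present in both groups, at 154, 158 and 171 FPKM in D-2 and 121, 141 and 176 in FIT. The defining markers SP7, ALPL and IBSP were at or near 0 in all 6 libraries, the highest value being 0.0677 FPKM. Saos-2 is known for high alkaline phosphatase, the product of ALPL, so these values go against the labelled cell type, and the groups are called by their labels. FIT replicate 3 stood apart from the other FIT libraries in depth and in some genes. The muscle genes MYOZ1 (46.9 FPKM) and MYH13 (26.7 FPKM) were high in it alone, the next library being at 0 and 0.374 FPKM, while CKM, the muscle creatine kinase, was listed at 0 in all 3 FIT libraries. Over all 19513 genes, the lowest FIT library was replicate 3 in 7373, replicate 2 in 7336 and replicate 1 in 4804. The highest was replicate 3 in 7499, replicate 1 in 7489 and replicate 2 in 4525. Of the 2099 genes called lower in D-2, FIT replicate 1 was the highest FIT library in 1074 and the lowest in 274. FIT replicate 3 was the lowest, and so the nearest to D-2, in 949 of these, close to the 876 of FIT replicate 2. Of the 747 called higher in D-2, FIT replicate 3 was the highest FIT library in 446, against 153 for FIT replicate 1 and 148 for FIT replicate 2. Results are given without a library where they change.

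Genes are called DEGs at an adjusted p below 0.05 and a fold change of at least 2 in edgeR's quasi-likelihood test over all genes. Each log2 difference is D-2 minus FIT with its standard error, so that positive values are higher in D-2. Of the genes tested, 747 (3.83%) were higher and 2099 (10.8%) lower in D-2, and the median log2 difference was -0.09. The values of both groups did not overlap in 9734 genes (49.9%), which is the level against which such counts in a list are to be read. Among the 13012 protein-coding genes, 630 (4.84%) were higher and 1092 (8.39%) lower, with a median of 0.08. The balance between directions depended on the scaling: 26.2% of all DEGs were higher in D-2 with TMM scaling and 46.1% with quantile normalization, where 1049 genes were higher and 1227 lower and the median was 0.05. Without D-2 replicate 1 the counts were 478 and 1281, without D-2 replicate 2 they were 493 and 1325, and without FIT replicate 1 they were 551 and 1204. Fewer cells of a type and less RNA per cell cannot be told apart in these bulk samples.

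**Figure D1:**
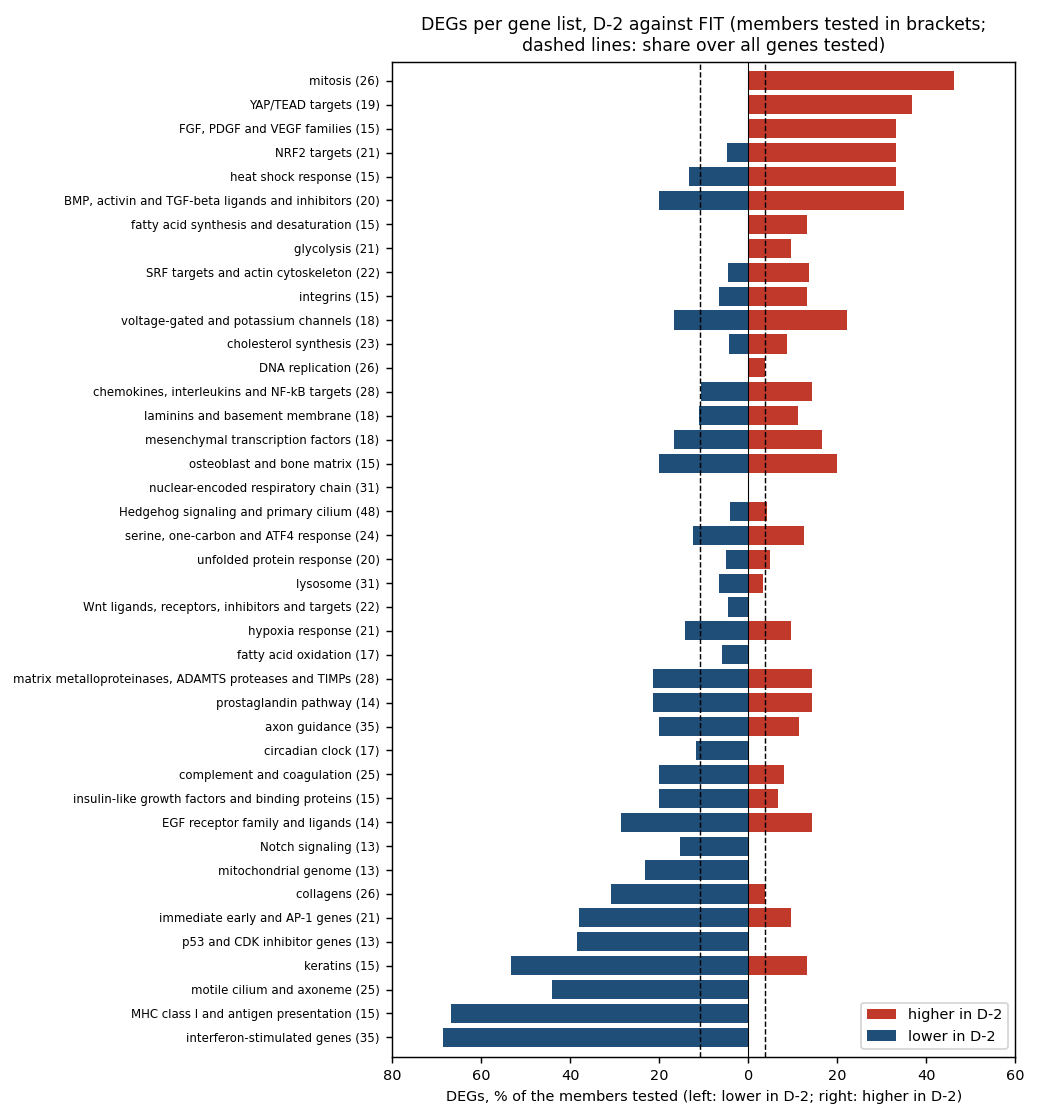
Share of the tested members that were DEGs in each gene list with at least 10 tested members, lists of other cell types left out, lower in D-2 to the left and higher to the right, in percent, with the number tested in brackets and the shares over all genes (3.83% and 10.8%) as dashed lines. Genes of mitosis (46.2%) and YAP/TEAD targets (36.8%) have the largest shares on the right among the lists shown, and interferon-stimulated genes (68.6%) and MHC class I genes (66.7%) on the left.

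The genes with the largest differences are described first, those higher in flat culture before those lower. SERPINB7, an intracellular serine protease inhibitor, was at 9.85, 7.72 and 7.63 FPKM in D-2 and 0.107, 0.0714 and 0.308 in FIT (log2 difference 6.03 ± 0.52, adjusted p = 0.00159). ANKRD1, a nuclear ankyrin protein and a target of YAP, was at 42.9, 38.3 and 34.6 FPKM in D-2 and 1.57, 1.01 and 0.444 in FIT (log2 difference 5.34 ± 0.39, adjusted p = 0.00137). MMP3, the matrix protease stromelysin-1, was at 7.96, 8.19 and 7.96 FPKM in D-2 and 0.189, 0.252 and 0.32 in FIT (log2 difference 5.13 ± 0.26, adjusted p = 0.000481). In all 3 genes every flat culture was far above every tumor, where the rule that picked them required groups without overlap. The secreted proteoglycan ESM1 was at 15.4, 14.5 and 16.5 FPKM against 0.3, 0.242 and 1.38 (log2 difference 4.87 ± 0.67, adjusted p = 0.00365), and the elastic fiber protein EFEMP1 at 22.9, 17 and 17.1 FPKM against 0.382, 0.316 and 2.83 (log2 difference 4.25 ± 0.84, adjusted p = 0.0105). In both of these genes FIT replicate 3 was several times above the other tumors, and without it the log2 differences were 5.95 and 5.82. TENM2, a cell surface teneurin, was at 6.3, 6.58 and 6.53 FPKM against 0.136, 0.184 and 1.44 (log2 difference 3.69 ± 0.88, adjusted p = 0.0192), and MARCHF4, a membrane ubiquitin ligase, at 13.5, 12.7 and 12.1 FPKM against 0.769, 0.582 and 2.61 (log2 difference 3.48 ± 0.55, adjusted p = 0.00515). IL7R, the receptor for interleukin-7, was at 32.6, 30.4 and 26.5 FPKM against 0.45, 2.8 and 8.07 (log2 difference 3.15 ± 0.86, adjusted p = 0.0305). Without FIT replicate 3 the log2 differences of TENM2, MARCHF4 and IL7R were 5.44, 4.36 and 4.28. The call of IL7R was lost without FIT replicate 2 or any 1 D-2 library (adjusted p 0.0625 to 0.101), and that of TENM2 without D-2 replicates 1 or 2 or FIT replicate 2 (0.0508 to 0.0541). Without FIT replicate 3 the log2 difference of SERPINB7 was 6.67.

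At the other end stood genes that were low in flat culture. SLC14A1, a urea transporter, was at 0.0615, 0.117 and 0.141 FPKM in D-2 and 13.4, 6.87 and 2.59 in FIT (log2 difference -5.95 ± 0.68, adjusted p = 0.00238), and without FIT replicate 1 its log2 difference was -5.34. IGFBP5, which binds insulin-like growth factors in the matrix, was at 1.01, 0.985 and 1.5 FPKM in D-2 and 111, 73.5 and 25.8 in FIT (log2 difference -5.75 ± 0.57, adjusted p = 0.00193). LSP1, an actin-binding protein known from leukocytes, was at 0.123, 0.148 and 0.165 FPKM against 5.81, 6.97 and 7.96 (log2 difference -5.39 ± 0.21, adjusted p = 0.00027), with the 3 tumors close together. ADAMTS14, which removes the amino-terminal propeptide of procollagens, was at 0.436, 0.556 and 0.778 FPKM against 11.9, 13.6 and 15 (log2 difference -4.36 ± 0.25, adjusted p = 0.000744). SCG2, a granin of secretory granules, was at 3.88, 3.54 and 3.91 FPKM in D-2 and 58.8, 57.2 and 62.6 in FIT (log2 difference -3.82 ± 0.10, adjusted p = 2.92e-05). The 3 tumors differed by little in SCG2, which had the smallest standard error of these genes. TRIM22, an antiviral ubiquitin ligase induced by interferon, was at 0.0771, 0.097 and 0.111 FPKM against 11.2, 5.52 and 0.222 (log2 difference -5.70 ± 1.22, adjusted p = 0.0135). Its call was lost without D-2 replicates 1 or 2 (adjusted p 0.0556 and 0.0526), and the log2 difference was -4.82 without FIT replicate 1 and -6.29 without FIT replicate 3. OAS2 is given with the interferon-stimulated genes. The pseudogenes RPLP0P2, RPL15P5 and PRELID1P5 also met the rule, with log2 differences of -4.58, -4.44 and -3.69. They share sequence with expressed genes, so their reads are uncertain. RPL15P5 and PRELID1P5 were high in FIT replicate 3 alone (32.0 and 19.9 FPKM), and without it their log2 differences were -1.99 and -1.49. RPLP0P2 was at -3.86 without FIT replicate 1. The calls of RPL15P5 and PRELID1P5 were lost without any 1 D-2 library (adjusted p 0.0847 to 0.116).

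These genes did not take the same place in the other cultures. IGFBP5 was as low in D-3 (1.0 FPKM, mean of 3) and DP-3 (1.26) as in D-2, and so was LSP1, at 0.116 and 0.176. SLC14A1 lay between, at 1.7 and 3.59 FPKM, and so did ADAMTS14 at 2.8 and 3.94. ANKRD1, at 26.6 and 19.6 FPKM, was nearer to D-2 than to the tumors. MMP3 was highest in the cultures with Matrigel or print, at 37.8 FPKM in D-3 and 14.8 in DP-3.

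**Figure D2:**
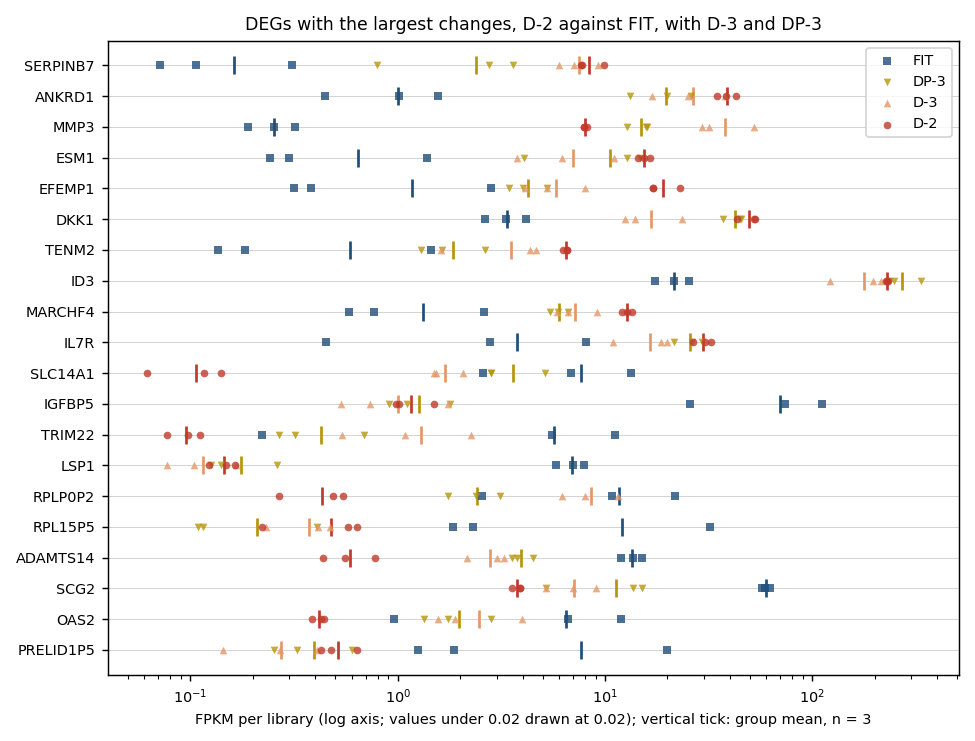
FPKM of the DEGs with the largest changes in each library of FIT, DP-3, D-3 and D-2 (log axis), with group means as vertical ticks. D-2 and FIT do not overlap in any gene shown, since the rule that picked the genes required this. FIT replicate 3 is the lone FIT point at 32.0 FPKM for RPL15P5 and at 19.9 for PRELID1P5.

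Genes of mitosis were higher in flat culture as a group. All 26 members of the list were tested, 12 were DEGs higher in D-2 and 0 were lower (46.2%), and the median log2 difference was 0.98. The 26 genes did not overlap between the groups, each being higher in all 3 D-2 libraries. All 26 passed an adjusted p of 0.05 at any fold in this direction, against 16.0% of all genes, so the 14 others missed the call by size only. Higher expressed genes passed more often: 1548 of 3675 protein-coding genes with a mean of 10 FPKM or more did so (median 0.32). HMMR, a spindle-associated hyaluronan receptor, was at 23.5, 21.3 and 22.2 FPKM in D-2 and 5.67, 6.78 and 9.41 in FIT (log2 difference 1.77 ± 0.19, adjusted p = 0.00205). The spindle kinase AURKA was at 65.4, 60.9 and 59.4 FPKM against 13.9, 24.1 and 27.5 (log2 difference 1.65 ± 0.25, adjusted p = 0.00444). CCNB1, the cyclin that carries cells into mitosis, was at 104, 102 and 98.7 FPKM in D-2 and 34.5, 47.4 and 52.1 in FIT (log2 difference 1.33 ± 0.17, adjusted p = 0.00282). Each of these 3 genes was more than doubled, and the D-2 libraries differed little among themselves. KIF20A, a kinesin of cytokinesis, was at 28.4, 31.8 and 31 FPKM against 9.81, 12.6 and 17.9 (log2 difference 1.33 ± 0.21, adjusted p = 0.00526). At the low end of the list BIRC5, the inhibitor of apoptosis survivin, was at 24.3, 24.5 and 22.7 FPKM against 15.8, 21.1 and 21 (log2 difference 0.45 ± 0.14, adjusted p = 0.0499), under the 2-fold limit. Without FIT replicate 1, the tumor with the lowest values in several of these genes, 6 members were DEGs, and with quantile normalization also 6. DNA replication genes moved less: of 26 tested, 1 was a DEG, RRM2, a subunit of ribonucleotide reductase (log2 difference 1.27 ± 0.27, adjusted p = 0.014), while 20 passed an adjusted p of 0.05 upward at any fold and the median was 0.69. That count and median stand beside 1548 of 3675 and 0.32 for protein-coding genes of 10 FPKM or more. RRM2 was at 32.4, 18.6 and 15.6 FPKM against 8.86, 11 and 10.8 FPKM, and its call was lost without D-2 replicate 1 (log2 difference 0.89) or FIT replicate 1 (adjusted p = 0.0545). Of the 115 tested genes the deposited annotation places in the cell cycle pathway, 11 were higher and 2 lower.

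**Figure D3:**
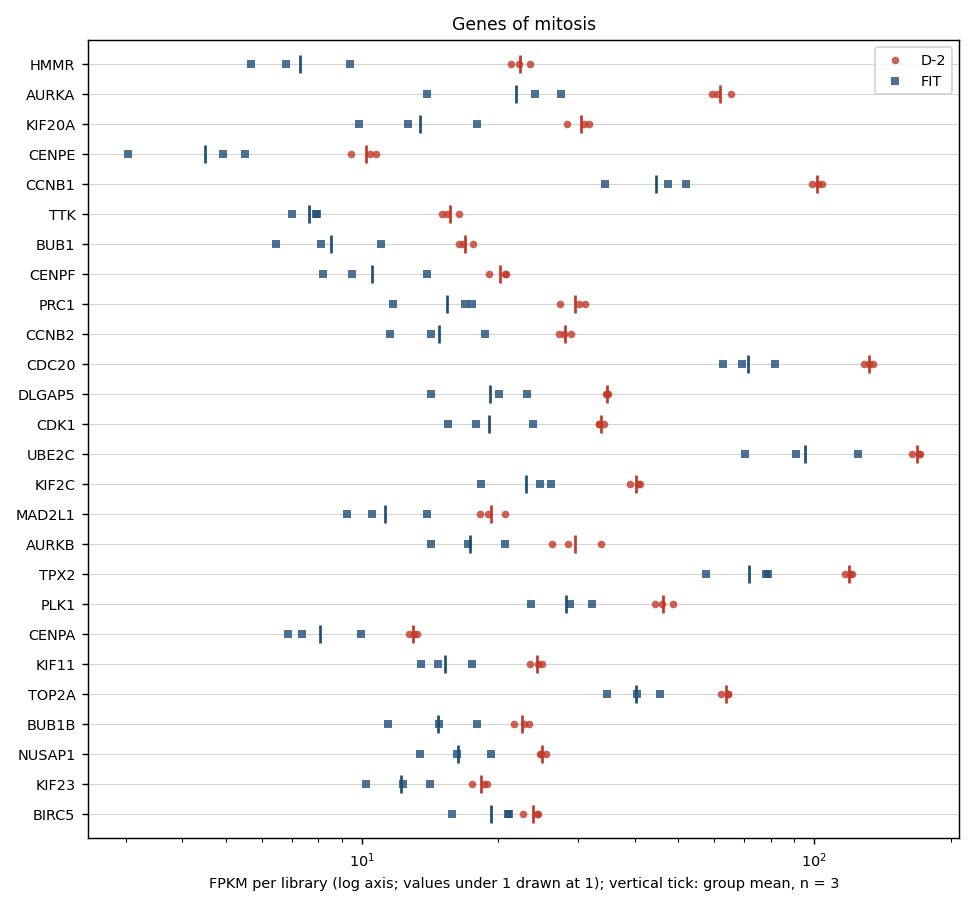
FPKM of the 26 mitosis genes in the 3 D-2 and 3 FIT libraries (log axis), with group means as vertical ticks, ordered by log2 difference. In every gene the 3 D-2 points lie to the right of the 3 FIT points, from HMMR (1.77) to BIRC5 (0.45).

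Mitotic genes share promoter elements, which are shown here so that the group can be seen as sequence. The cell cycle homology region (CHR) was searched as TTTGAA and the CCAAT box as CCAAT, on both strands of the 250 bases before the start in RefSeq (GRCh38.p14). A CHR match stood in 12 of 21 mitosis promoters found there (57.1%), against 13.6% of all promoters and 8.65% of those of tested genes. CCAAT stood in 18 of 21 (85.7%), against 33% of all promoters and 35.7% of tested ones. The CHR letters stood in 5 of 10 promoters of DEGs (50%) and in 7 of 11 of tested members that were not DEGs (63.6%). For CCAAT these were 9 of 10 (90%) and 9 of 11 (81.8%). The list was made of genes known for mitosis, so the shares describe the list. In the following windows of 100 bases, 5′ to 3′ in the direction of the gene, capitals mark the CHR letters or their reverse complement TTCAAA, and CCAAT or its reverse attgg can be read beside them. CDC20, the activator of the anaphase ubiquitin ligase, lies on the plus strand (chr1:43358869-43358968), and TOP2A, which untangles chromosomes (chr17:40417995-40418094), and DLGAP5, a spindle protein (chr14:55191649-55191748), on the minus strand.
CDC20: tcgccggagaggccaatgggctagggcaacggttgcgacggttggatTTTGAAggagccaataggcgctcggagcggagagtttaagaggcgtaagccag
TOP2A: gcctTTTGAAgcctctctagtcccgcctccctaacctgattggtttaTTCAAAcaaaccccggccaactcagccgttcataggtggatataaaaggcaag
DLGAP5: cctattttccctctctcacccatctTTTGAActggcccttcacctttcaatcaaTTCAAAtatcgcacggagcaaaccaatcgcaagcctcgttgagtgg
CDC20 was at 135, 132 and 129 FPKM in D-2 and 62.7, 69 and 82 in FIT (log2 difference 1.04 ± 0.12, adjusted p = 0.00238), DLGAP5 at 34.6, 34.7 and 34.9 FPKM and 14.2, 20.1 and 23.1 (log2 difference 1.01 ± 0.18, adjusted p = 0.00777), and TOP2A at 62.2, 64.5 and 64.4 FPKM and 34.7, 40.6 and 45.6 (log2 difference 0.81 ± 0.12, under the 2-fold limit). The calls of CDC20 and DLGAP5 were lost without FIT replicate 1, where the log2 differences were 0.91 and 0.79. A match describes letters in this window and is not evidence of a bound factor.

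Targets of YAP and TEAD, which report on cell spreading and stiffness, were higher in flat culture in part. Of 19 tested, 7 were higher and 0 lower (36.8%, median 0.68). ANKRD1 is described above. The matricellular protein CCN2 was at 248, 225 and 178 FPKM in D-2 and 47.1, 54 and 42.9 in FIT (log2 difference 2.33 ± 0.17, adjusted p = 0.00134), and its relative CCN1 at 116, 131 and 109 FPKM and 41.5, 55.3 and 57.2 (log2 difference 1.36 ± 0.16, adjusted p = 0.00247). CRIM1, a membrane protein that binds BMPs, was at 44.1, 41.1 and 36.2 FPKM against 10.2, 10.9 and 10.4 (log2 difference 2.10 ± 0.11, adjusted p = 0.000592). These genes were clear of overlap, and the tumors agreed closely for CRIM1. WWC1, an upstream member of the Hippo pathway, was at 4.11, 3.81 and 4.03 FPKM against 1.83, 1.41 and 1.68 (log2 difference 1.43 ± 0.12, adjusted p = 0.00159). The receptor kinase AXL was at 162, 158 and 148 FPKM against 66.4, 68.3 and 91 (log2 difference 1.21 ± 0.14, adjusted p = 0.00238), and the ligand TGFB2 at 0.977, 0.874 and 0.982 FPKM against 0.313, 0.233 and 0.424 (log2 difference 1.71 ± 0.27, adjusted p = 0.00533). TEAD1, the DNA-binding partner itself, was not a DEG, at 9.29, 7.48 and 9.75 FPKM against 22.5, 11.1 and 18 (log2 difference -0.79 ± 0.23, adjusted p = 0.0385). The count of this list stayed within 1.5 times of 7 whichever library was left out. The targets of SRF and the actin genes were less uniform, with 3 of 22 higher and 1 lower (median 0.50). TAGLN, an actin-bundling protein, was at 13.4, 11.7 and 11 FPKM against 3.43, 3.45 and 3.71 (log2 difference 1.92 ± 0.11, adjusted p = 0.000799). The member that was lower was the smooth muscle actin ACTG2, at 6.39, 6.32 and 5.51 FPKM against 45.3, 58.7 and 10.3 (log2 difference -2.51 ± 0.57, adjusted p = 0.0163). Without FIT replicate 1 the count of SRF targets higher in D-2 was 1, and without FIT replicate 3 it was 6. The call of ACTG2 was lost without any 1 D-2 library (adjusted p 0.0555 to 0.057). In D-3 and DP-3, TAGLN was at 3.46 and 3.85 FPKM, close to the tumors.

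The TGF-β superfamily list held DEGs in both directions, 7 of 20 higher and 4 lower (median 0.47). Ligands of this family signal through SMAD proteins, and secreted antagonists trap them. TGFBI, an adhesion protein that TGF-β induces, was at 11.6, 10.8 and 11 FPKM in D-2 and 1.35, 1.5 and 2.29 in FIT (log2 difference 2.86 ± 0.21, adjusted p = 0.00134), several times higher in every flat culture. Among antagonists, FST, which traps activins, was at 42.9, 40.4 and 34.2 FPKM against 11.8, 15.9 and 14.1 (log2 difference 1.64 ± 0.16, adjusted p = 0.00185). Among the genes lower in D-2, GDF15, a stress-induced ligand, was at 0.303, 0.221 and 0.199 FPKM against 1.65, 1.2 and 0.453 (log2 difference -2.02 ± 0.51, adjusted p = 0.0237), and INHBE, an inhibin subunit, at 2.37, 2.14 and 2.09 FPKM against 5.95, 3.8 and 8.16 (log2 difference -1.27 ± 0.26, adjusted p = 0.012). BMP1, a procollagen C-proteinase in spite of its name, was at 7.55, 8.31 and 7.4 FPKM against 18.7, 20.2 and 24 (log2 difference -1.28 ± 0.12, adjusted p = 0.00184). GDF15 lost its call without any library but FIT replicate 3 (adjusted p 0.0568 to 0.0795). GDF15 was far higher in D-3 (46.2 FPKM) than in either group compared here.

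Growth factors divided by family. Of the 15 tested genes of the FGF, PDGF and related families, 5 were higher and 0 lower (33.3%), although the median was 0.16. FGF5 was at 1.99, 2.22 and 1.97 FPKM in D-2 and 0.632, 0.569 and 0.573 in FIT (log2 difference 1.94 ± 0.17, adjusted p = 0.0016), FGF1 at 7.96, 7.08 and 6.54 FPKM and 3.77, 2.83 and 3.21 (log2 difference 1.29 ± 0.14, adjusted p = 0.00205), and FGF2 at 3.29, 2.73 and 2.52 FPKM and 1.19, 1.36 and 1.69 (log2 difference 1.17 ± 0.19, adjusted p = 0.0056). The decoy receptor FGFRL1 was at 13.4, 12.6 and 12.6 FPKM against 4.77, 5.53 and 4.92 (log2 difference 1.49 ± 0.12, adjusted p = 0.00149). All 4 were roughly doubled or more, with no overlap. Of the EGF receptor family and its ligands, 2 of 14 were higher and 4 lower. NRG1, the neuregulin ligand of ERBB3 and ERBB4, was at 1.43, 2.3 and 1.88 FPKM against 0.357, 0.628 and 0.511 (log2 difference 2.04 ± 0.27, adjusted p = 0.00346). The ligand EREG was at 0.296, 0.259 and 0.178 FPKM against 4.05, 3.73 and 1.47 (log2 difference -3.50 ± 0.44, adjusted p = 0.00282), and LRIG1, an inhibitor of EGF receptors, at 7.63, 7.43 and 7.02 FPKM against 23, 20.9 and 22.9 (log2 difference -1.44 ± 0.08, adjusted p = 0.000799). The count of members lower in D-2 was 2 without FIT replicate 1, 2 or 3. The insulin-like growth factor binding proteins had the widest spread. IGFBP7 was at 75.9, 74.9 and 79.5 FPKM against 13.1, 19.7 and 37.2 (log2 difference 1.88 ± 0.35, adjusted p = 0.00852), whereas IGFBP3 was at 2.4, 2.4 and 2.46 FPKM against 21.7, 18.7 and 10.1 (log2 difference -2.64 ± 0.28, adjusted p = 0.00205) and IGFBP6 at 43.8, 51.5 and 51.1 FPKM against 224, 195 and 123 (log2 difference -1.74 ± 0.22, adjusted p = 0.00302). With IGFBP5, 3 of the 15 tested genes of this list were lower in D-2 and 1 was higher. IGFBP3 resembled IGFBP5 in being as low in D-3 and DP-3 (2.75 and 2.21 FPKM) as in D-2.

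Chaperones took both directions. In the heat shock list 5 of 15 were higher and 2 lower (33.3% and 13.3%, median 0.71). Among those higher in D-2, HSPD1 and HSPE1, the mitochondrial folding chamber and its lid, were at 224, 221 and 239 FPKM against 89.2, 80.6 and 115 (log2 difference 1.42 ± 0.14, adjusted p = 0.00184) and at 88, 85.3 and 96.3 FPKM against 36.8, 29.1 and 46.8 (log2 difference 1.42 ± 0.16, adjusted p = 0.00238). HSP90AA1 was at 648, 617 and 582 FPKM against 271, 209 and 352 (log2 difference 1.31 ± 0.18, adjusted p = 0.00349), and HSPA8, the constitutive member of the HSP70 family, at 462, 419 and 441 FPKM against 144, 187 and 341 (log2 difference 1.13 ± 0.29, adjusted p = 0.026). The stress-inducible HSP70 genes HSPA1A, HSPA1B and HSPA6 were lower, the last of them outside the list. HSPA1A was at 23.9, 26.3 and 29.5 FPKM against 64.7, 44.4 and 148 (log2 difference -1.52 ± 0.40, adjusted p = 0.0268), HSPA1B at 35.8, 38.3 and 47.3 FPKM against 94.1, 69.7 and 253 (log2 difference -1.61 ± 0.45, adjusted p = 0.0323), and HSPA6 at 0.233, 0.207 and 0.297 FPKM against 1.87, 0.604 and 0.631 (log2 difference -1.90 ± 0.51, adjusted p = 0.0293). HSPA1A and HSPA1B are near-identical neighbours, so the split of reads between them is uncertain. Both were highest in FIT replicate 3, without which the log2 differences were -0.91 and -0.89. Their calls and that of HSPA8 were also lost without any 1 D-2 library (adjusted p 0.0646 to 0.102), and that of HSPA8 without FIT replicates 1 (log2 difference 0.86) or 2 (adjusted p = 0.0874). HSPA6 lost its call without any 1 D-2 library or FIT replicate 1 (0.0651 to 0.0954). The count of list members higher in D-2 was 3 without FIT replicate 1 or 2 or any 1 D-2 library. In the symbol family HSPA as a whole, 4 of 15 genes were higher and 3 lower.

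Targets of NRF2, the regulator of the oxidative stress response, were higher in 7 of 21 and lower in 1 (33.3% and 4.76%, median 0.52). The quinone reductase NQO1 was at 28.5, 27 and 25.4 FPKM in D-2 and 7.31, 9.08 and 10.3 in FIT (log2 difference 1.75 ± 0.15, adjusted p = 0.00159). TXNRD1, thioredoxin reductase, was at 28.2, 24.8 and 39.8 FPKM against 10.1, 10.7 and 10.7 (log2 difference 1.71 ± 0.18, adjusted p = 0.00211). GCLM, for glutathione synthesis, was at 19.1, 17.3 and 16.1 FPKM against 6.78, 10.3 and 5.38 (log2 difference 1.37 ± 0.25, adjusted p = 0.00839). Against this direction AKR1B10, an aldo-keto reductase, was at 7.12, 5.65 and 5.76 FPKM against 14.4, 27.4 and 23.8 (log2 difference -1.68 ± 0.26, adjusted p = 0.00513). Iron and metal handling stood among the pathways with the largest shares of genes higher in D-2. In the ferroptosis pathway 6 of 31 were higher and 1 lower, and in mineral absorption 8 of 30 and 1. TFRC, the transferrin receptor through which cells take up iron, was at 71.7, 70.9 and 53.2 FPKM against 13.7, 21.7 and 16.8 (log2 difference 2.05 ± 0.22, adjusted p = 0.00211). The metal reductase STEAP1 was at 16.6, 16.3 and 16.9 FPKM against 4.56, 5.56 and 7.08 (log2 difference 1.68 ± 0.19, adjusted p = 0.00222), and ATP1B1, a subunit of the sodium pump, at 21.9, 25.1 and 20.7 FPKM against 5.64, 5.14 and 10.3 (log2 difference 1.85 ± 0.26, adjusted p = 0.00377). SAT1, which acetylates spermidine and spermine, was the gene of the ferroptosis pathway that was lower, at 1.79, 1.5 and 1.86 FPKM against 16.3, 11.6 and 10.2 (log2 difference -2.72 ± 0.21, adjusted p = 0.00145). TFRC was 26.9 FPKM in D-3 and 45.6 in DP-3, between the groups.

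Interferon-stimulated genes had the largest share of DEGs of the lists with at least 10 tested members, and all of them were lower in flat culture. Interferons bind surface receptors, activate transcription factors such as STAT2 and IRF9, and switch on genes that carry the interferon-stimulated response element (ISRE). Of 35 members tested, 24 were lower in D-2 and 0 higher (68.6%, against 10.8% of all genes), and the median log2 difference was -1.65. In 27 of them the groups did not overlap. IFI27, a mitochondrial membrane protein, was at 0.134, 0.0937 and 0.108 FPKM in D-2 and 5.13, 3.79 and 0.502 in FIT (log2 difference -4.60 ± 0.80, adjusted p = 0.0071). OAS2, a sensor of double-stranded RNA, was at 0.441, 0.425 and 0.388 FPKM against 11.9, 6.6 and 0.965 (log2 difference -3.79 ± 0.79, adjusted p = 0.0122). RSAD2, the antiviral enzyme viperin, was at 1.29, 1.3 and 1.09 FPKM in D-2 and 14.2, 11.2 and 2.66 in FIT (log2 difference -2.78 ± 0.55, adjusted p = 0.0107). The tumors were far from equal in these genes, FIT replicate 1 being highest and FIT replicate 3 lowest. BST2, which tethers budding virus, was at 16.7, 14.4 and 18.7 FPKM against 177, 123 and 45 (log2 difference -2.64 ± 0.45, adjusted p = 0.00678), IFI6 at 27, 27.4 and 24.4 FPKM against 287, 209 and 43 (log2 difference -2.62 ± 0.60, adjusted p = 0.0169), and ISG15, a ubiquitin-like modifier, at 34.2, 33.4 and 32.6 FPKM against 163, 105 and 64.9 (log2 difference -1.58 ± 0.30, adjusted p = 0.00886). The signal carriers were lower as well, STAT2 at 2.6, 3.11 and 3.73 FPKM against 22.2, 14.6 and 10.2 (log2 difference -2.16 ± 0.28, adjusted p = 0.00332), IRF9 at 1.14, 0.906 and 0.51 FPKM against 4.93, 4.51 and 3.25 (log2 difference -2.14 ± 0.33, adjusted p = 0.0048), and IRF1 at 1.45, 1.52 and 1.42 FPKM against 6.97, 4.44 and 3.95 (log2 difference -1.65 ± 0.21, adjusted p = 0.00307). IFIT1, which binds viral RNA, was not a DEG, at 6.59, 5.55 and 5.47 FPKM against 19.3, 10.4 and 4.26 (log2 difference -0.79 ± 0.46).

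Over the 35 genes FIT replicate 3 was the lowest tumor in 29 and FIT replicate 1 the highest in 32. Leaving out D-2 replicate 1, 2 or 3 gave 16, 16 or 18 members lower in D-2, and leaving out FIT replicate 1, 2 or 3 gave 20, 21 or 26. With quantile normalization it was 16. IFI6 lost its call without any 1 D-2 library (adjusted p 0.057 to 0.0595), and OAS2 was at -3.10 without FIT replicate 1. Against the average of D-3 and DP-3, where 3.82% of genes were lower and 0.493% higher in D-2, 14 of the 35 were lower and 0 higher. That comparison uses the same D-2 libraries. In the D-3 and DP-3 cultures, which had no host, IFI6 was at 160 and 59.3 FPKM and BST2 at 75.4 and 38.9, for each gene above D-2. SAMD9, another member, was at 2.59, 2.63 and 2.13 FPKM in D-2 and 2.15, 1.44 and 1.0 in FIT (log2 difference 0.83 ± 0.27, not a DEG).

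The ISRE is printed for members of this list because the list is known for it. It was searched as TTTCNNTTTC on both strands, in the 250 bases before the RefSeq start, and adjacent matches can share letters. It stood in 17 of the 29 promoters found for the list (58.6%) and in 6 of 13 of the MHC class I list (46.2%), against 3.07% of all 27305 promoters, 2.65% of those of tested genes and 0 of 21 mitosis promoters. The list was made of genes known for this response, so the share describes the list. The windows hold 100 bases, 5′ to 3′ in the direction of the gene, with the ISRE letters in capitals. IFI27 (chr14:94110596-94110695), ISG15 (chr1:1013345-1013444), IFIT1 (chr10:89392475-89392574) and HLA-F (chr6:29723209-29723308) lie on the plus strand, and IFI6 (chr1:27672231-27672330), BST2 (chr19:17405700-17405799) and TAP1 (chr6:32853787-32853886) on the minus strand of GRCh38.p14.
IFI27: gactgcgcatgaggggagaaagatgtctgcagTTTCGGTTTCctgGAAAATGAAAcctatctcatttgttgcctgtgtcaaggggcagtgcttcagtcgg
IFI6: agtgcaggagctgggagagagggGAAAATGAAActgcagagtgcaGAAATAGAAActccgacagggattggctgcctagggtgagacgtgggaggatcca
BST2: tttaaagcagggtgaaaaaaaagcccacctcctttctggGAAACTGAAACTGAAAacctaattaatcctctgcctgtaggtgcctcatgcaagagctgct
ISG15: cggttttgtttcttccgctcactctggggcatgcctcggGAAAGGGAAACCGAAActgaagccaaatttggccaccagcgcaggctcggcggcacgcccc
TAP1: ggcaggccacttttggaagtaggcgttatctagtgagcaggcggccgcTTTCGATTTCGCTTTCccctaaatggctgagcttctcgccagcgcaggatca
HLA-F: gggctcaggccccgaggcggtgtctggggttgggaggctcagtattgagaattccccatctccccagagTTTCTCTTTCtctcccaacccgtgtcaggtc
IFIT1: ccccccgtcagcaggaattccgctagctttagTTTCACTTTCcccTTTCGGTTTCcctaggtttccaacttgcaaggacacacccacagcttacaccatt
IFI27, IFI6, BST2, ISG15, TAP1 and HLA-F were DEGs lower in D-2, while IFIT1, with the element in 2 copies, was not. Among the tested members the letters stood in 10 of 20 promoters of DEGs (50%) and in 6 of 8 promoters of genes that were not DEGs (75%).

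Genes of antigen presentation were also lower in flat culture. MHC class I molecules carry peptides, cut by the immunoproteasome and pumped in by TAP, to the cell surface. Of 15 genes tested, 10 were lower in D-2 and 0 higher (66.7%, median -1.23), and in 13 the groups did not overlap. Among the heavy chains, HLA-B was at 25.2, 26 and 24.8 FPKM in D-2 and 241, 227 and 77.2 in FIT (log2 difference -2.69 ± 0.41, adjusted p = 0.0046), and HLA-C at 74, 70.6 and 75.8 FPKM and 275, 260 and 153 (log2 difference -1.49 ± 0.22, adjusted p = 0.00446). The nonclassical HLA-F was at 0.961, 0.77 and 0.906 FPKM against 7.8, 5.44 and 3.4 (log2 difference -2.49 ± 0.30, adjusted p = 0.00274). The heavy chains are similar in sequence, so the reads of one can be counted for another. The immunoproteasome subunit PSMB9 was at 2.41, 2.53 and 2.58 FPKM against 15.5, 10.6 and 8.27 (log2 difference -2.03 ± 0.23, adjusted p = 0.00227), and PSMB8 at 7.32, 7.39 and 6.74 FPKM against 24, 22.9 and 16.8 (log2 difference -1.42 ± 0.16, adjusted p = 0.0022). TAP1 was at 5.91, 5.44 and 5.7 FPKM against 27.5, 22 and 12.2 (log2 difference -1.70 ± 0.27, adjusted p = 0.00551), and NLRC5, the transactivator of this gene set, at 2.08, 2.29 and 2.15 FPKM against 12.3, 11.2 and 5.76 (log2 difference -2.01 ± 0.27, adjusted p = 0.00357). TAP2, the partner of TAP1, was at 19.4, 17.9 and 17.5 FPKM against 22.1, 23.2 and 13.6 and was not a DEG (log2 difference 0.04 ± 0.21). The count was 9 or 10 whichever library was left out. Of the 15, 1 was lower in D-2 than the average of D-3 and DP-3, namely PSMB9. HLA-B was at 168 FPKM in D-3 but 35.5 in DP-3, so that D-3 and DP-3 were not alike. In the wider pathway of antigen processing and presentation, which also lists chaperones, 10 of 39 genes were lower and 3 higher.

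**Figure D4:**
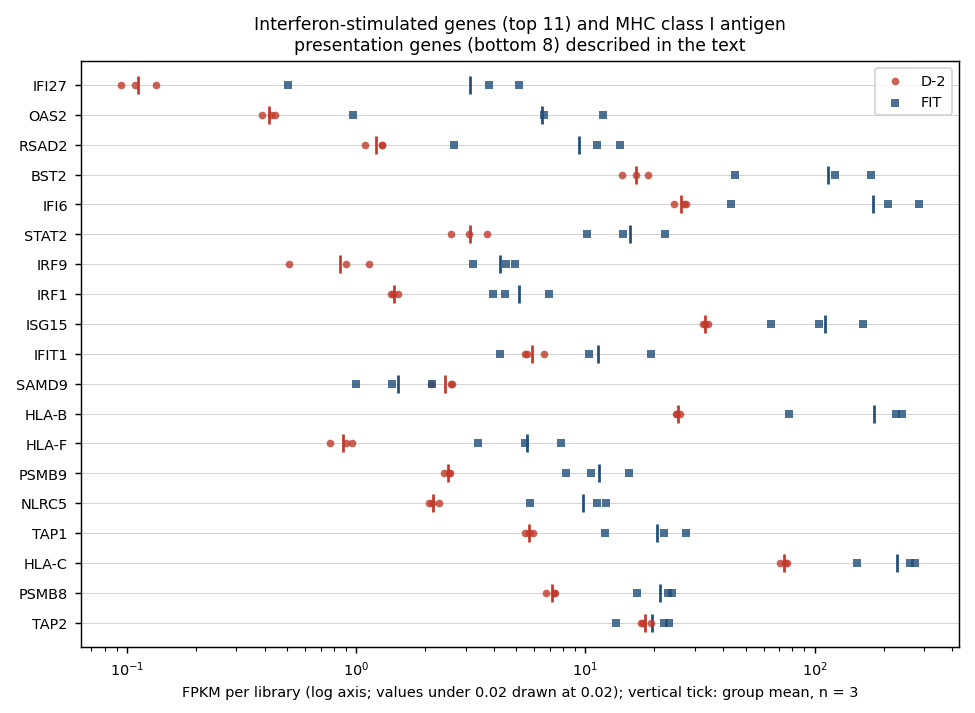
FPKM of the interferon-stimulated and MHC class I antigen presentation genes described in the text in each D-2 and FIT library (log axis), with group means as vertical ticks, each set ordered by log2 difference. The D-2 points lie to the left of the FIT points in every gene shown except IFIT1, TAP2 and SAMD9, and the FIT points are spread, for example from 43.0 to 287 FPKM in IFI6.

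Immediate early genes, which answer within minutes to growth factors, stress or tissue handling, were lower in D-2 in 8 of 21 and higher in 2 (38.1% and 9.52%, median -0.84). FOS was at 0.268, 0.379 and 0.392 FPKM in D-2 and 2.22, 2.01 and 1.6 in FIT (log2 difference -2.31 ± 0.27, adjusted p = 0.00257), FOSB at 0.263, 0.114 and 0.209 FPKM and 1.49, 0.938 and 0.886 (log2 difference -2.32 ± 0.39, adjusted p = 0.0061), and NR4A2 at 0.283, 0.17 and 0.189 FPKM and 2.32, 0.783 and 0.897 (log2 difference -2.46 ± 0.48, adjusted p = 0.0102). These 3 were at low levels even in the tumors. KLF4, a zinc finger factor, reached higher levels, at 6.45, 4.77 and 4.63 FPKM against 29.4, 17.1 and 15.8 (log2 difference -1.81 ± 0.25, adjusted p = 0.00379). FOSL1, the AP-1 subunit FRA1, took the opposite direction, at 135, 134 and 118 FPKM against 50, 66.7 and 39.4 (log2 difference 1.46 ± 0.21, adjusted p = 0.00399), as did KLF2, at 8.56, 8.25 and 8.55 FPKM against 3.69, 3.11 and 3.15 (log2 difference 1.5 ± 0.13, adjusted p = 0.00159). Without FIT replicate 1 the log2 difference of NR4A2 was -1.85.

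Stress, arrest and clock genes differed from list to list. Of 13 tested genes of the p53 response and the CDK inhibitors, 5 were lower and 0 higher (38.5%, median -0.45). BTG2, an antiproliferative protein, was at 0.395, 0.591 and 0.603 FPKM in D-2 and 1.59, 1.55 and 2.49 in FIT (log2 difference -1.66 ± 0.31, adjusted p = 0.00904). SESN2, a stress sensor upstream of mTORC1, was at 3.89, 3.14 and 3.56 FPKM against 13.5, 9.77 and 6.59 (log2 difference -1.34 ± 0.25, adjusted p = 0.00903), and GADD45A at 35.8, 41.8 and 42.3 FPKM against 82.7, 133 and 68.7 (log2 difference -1.10 ± 0.26, adjusted p = 0.0184). The CDK inhibitor CDKN1A was at 5.82, 5.39 and 5.61 FPKM against 25.8, 9.8 and 7.67, which was not a DEG (log2 difference -1.20 ± 0.41, adjusted p = 0.066), and MDM2, a direct p53 target, was at 3.21, 3.44 and 4.1 FPKM against 3.45, 4.35 and 4.39 (-0.03 ± 0.15). Saos-2 cells are known to lack functional p53. The count was 2 without any 1 D-2 library and 3 without FIT replicate 1 or 2, and GADD45A lost its call without any 1 D-2 library (adjusted p 0.0514 to 0.0682) or FIT replicate 2 (log2 difference -0.77). Of the 24 genes of the serine, one-carbon and ATF4 response, 3 were higher and 3 lower (12.5% each, median 0.1). Over all genes the shares were 3.83% higher and 10.8% lower. STC2, given below, was 1 of the 3 higher. CHAC1, a glutathione-degrading enzyme, was at 2.12, 1.79 and 2.41 FPKM against 9.34, 4.77 and 4.33 (log2 difference -1.38 ± 0.32, adjusted p = 0.017), and its call was lost without D-2 replicates 1 or 2 (0.0589 and 0.0645). The count of that list higher in D-2 was 1 without D-2 replicates 1 or 2 or FIT replicate 1. Hypoxia response genes gave 2 higher and 3 lower of 21 (9.52% and 14.3%, median -0.05). ANGPTL4, a lipase inhibitor, was at 6.0, 4.48 and 2.97 FPKM against 36.7, 21.3 and 15.2 (log2 difference -2.28 ± 0.37, adjusted p = 0.00582), and DDIT4, which restrains mTORC1, at 2.9, 3.56 and 4.32 FPKM against 14.2, 10.6 and 18.1 (log2 difference -1.83 ± 0.23, adjusted p = 0.00294). The secreted glycoprotein STC2 was higher, at 13, 10.7 and 11.2 FPKM against 6.07, 6.1 and 4.45 (log2 difference 1.22 ± 0.16, adjusted p = 0.00335). Among 17 clock genes, 2 were lower (11.8%, near the 10.8% of all genes) and 0 higher. PER1 was at 1.48, 1.53 and 1.86 FPKM against 10.7, 8.1 and 4.12 (log2 difference -2.08 ± 0.33, adjusted p = 0.00523) and NR1D1 at 5.73, 6.07 and 5.24 FPKM against 19.6, 15.1 and 8.08 (log2 difference -1.18 ± 0.30, adjusted p = 0.0233). NR1D1 lost its call without any library but FIT replicate 3 (adjusted p 0.0625 to 0.0751).

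Collagens were lower in flat culture in 8 of 26 and higher in 1 (30.8% and 3.85%, median -0.55). COL5A3, a minor fibril collagen chain, was at 0.0374, 0.206 and 0.171 FPKM in D-2 and 3.09, 5.32 and 3.02 in FIT (log2 difference -4.63 ± 0.63, adjusted p = 0.00353), and in D-3 and DP-3 it was as low as in D-2 (0.113 and 0.0642 FPKM). COL11A2, a cartilage collagen, was at 0.153, 0.212 and 0.177 FPKM against 2.43, 2.16 and 1.0 (log2 difference -3.20 ± 0.38, adjusted p = 0.00254). The basement membrane zone collagens COL15A1 and COL18A1 were at 0.753, 0.712 and 0.699 FPKM against 8.72, 4.87 and 5.64 (log2 difference -2.99 ± 0.22, adjusted p = 0.00137) and at 0.857, 0.971 and 1.19 FPKM against 4.59, 9.12 and 3.05 (log2 difference -2.34 ± 0.41, adjusted p = 0.00745). All 4 were low in D-2, at about 1 FPKM or less. The one collagen higher in D-2 was COL4A1, the main chain of basement membranes, at 23.7, 24.8 and 24.5 FPKM against 12.3, 11.7 and 14.4 (log2 difference 1.08 ± 0.10, adjusted p = 0.00184). The count lower in D-2 stayed within 1.5 times of 8 whichever library was left out.

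Among other matrix genes both directions occurred. THBS1, thrombospondin-1, was at 144, 136 and 106 FPKM in D-2 and 18.7, 36.6 and 32.6 in FIT (log2 difference 2.28 ± 0.28, adjusted p = 0.00276). LAMA5, a laminin chain, was at 1.23, 1.41 and 1.61 FPKM against 13.5, 15 and 10.5 (log2 difference -3.04 ± 0.19, adjusted p = 0.00086). Fibronectin, FN1, was at 422, 476 and 470 FPKM against 1347, 2215 and 851 (log2 difference -1.55 ± 0.34, adjusted p = 0.0149), with a wide spread among tumors, and its call was lost without any 1 D-2 library (adjusted p 0.0506 to 0.0583). Among integrins, ITGA10, a collagen receptor chain, was at 7.96, 8.48 and 8.57 FPKM against 49.6, 50.2 and 29.3 (log2 difference -2.22 ± 0.22, adjusted p = 0.00193), and ITGA2, another one, at 40.7, 18.8 and 35.7 FPKM against 8.64, 15.6 and 13.6 (log2 difference 1.48 ± 0.34, adjusted p = 0.0166). ITGA2 lost its call without D-2 replicates 1 or 3 (0.0564 and 0.0514). In the pathway of ECM-receptor interaction 11 of 54 were lower and 7 higher. Of the 28 tested matrix proteases and TIMPs, 4 were higher and 6 lower (14.3% and 21.4%, median -0.11). The protease MMP19 was at 1.12, 1.06 and 1.33 FPKM against 3.62, 4.25 and 4.25 (log2 difference -1.63 ± 0.18, adjusted p = 0.00213), and ADAMTS10, which acts on microfibrils, at 0.353, 0.4 and 0.428 FPKM against 1.62, 1.76 and 1.81 (log2 difference -1.98 ± 0.20, adjusted p = 0.00195). ADAMTS6, its close relative, was higher in D-2, at 2.43, 2.4 and 2.43 FPKM against 0.819, 0.435 and 1.31 (log2 difference 1.67 ± 0.35, adjusted p = 0.0121). The count of proteases higher in D-2 was 2 without D-2 replicates 1 or 2.

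Keratins, the filaments of epithelia, were lower in D-2 in 8 of 15 and higher in 2 (53.3% and 13.3%, median -1.39). The 2 that were higher were hair keratins, KRT81 at 134, 124 and 120 FPKM in D-2 and 20.8, 39.1 and 42.8 in FIT (log2 difference 2.03 ± 0.27, adjusted p = 0.00337), and KRT86 at 10.1, 9.0 and 10 FPKM and 3.18, 4.08 and 7.91 (log2 difference 1.10 ± 0.32, adjusted p = 0.0372). Those lower included keratins of the epidermis that were close to 0 in culture. KRT5 was at 0.0187, 0.1 and 0.0541 FPKM against 0.642, 0.917 and 2.04 (log2 difference -4.14 ± 0.73, adjusted p = 0.00717), and its partner KRT14 at 0.0552, 0.0188 and 0.21 FPKM against 10.4, 1.67 and 0.115 (log2 difference -5.21 ± 1.53, adjusted p = 0.0389). For KRT6A, at 0, 0.025 and 0.0132 FPKM against 0.652, 3.94 and 0.185, the D-2 libraries were at or under the limit of 12 estimated counts, so it was at least 34.8-fold lower in D-2, a gene that passed the filter on low values through FIT alone. KRT5, at 0.1 FPKM or less in D-2, and KRT14, under 0.1 FPKM in D-2 replicates 1 and 2, met that filter by their FIT values. The 8 lower keratins include KRT6A, KRT5 and KRT14, whose calls are therefore no support for a difference in keratins. The count and the median of this list thus depend in part on the filter. The tumors did not agree on which keratin was high: KRT14 was high in FIT replicate 1, KRT6A in FIT replicate 2 and KRT5 in FIT replicate 3. The keratin count was 5 without D-2 replicate 3 or FIT replicates 1 or 2. KRT14 lost its call without any library but FIT replicate 3 (adjusted p 0.0582 to 0.124), KRT6A without D-2 replicates 1 or 3 (0.051 and 0.0575), and KRT86 without any library but FIT replicate 3 (0.0768 to 0.117). Without D-2 replicate 2 the log2 difference of KRT5 was -4.84. Of the markers of keratinocytes, 3 of 7 tested were lower and 1 higher in D-2, with summed levels of 27.7 to 29.3 FPKM in D-2 and 26.3 to 51.7 in FIT. Of the 15 markers, 4 were listed at 0 in all 6 libraries. Their part in the keratin values was not tested.

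Genes of the motile cilium, which builds a beating axoneme, were lower in D-2 in 11 of 25 tested and higher in 0 (44.0%, median -1.21). They were at low levels in both groups, and 25 of the 59 members passed the filter on low values. FIT libraries alone can meet this filter, and the members that entered in this way were not counted. Of the 59, 13 were at 0 in every D-2 library and 5 in every FIT library. Among protein-coding genes below a mean of 1 FPKM, 19.4% were lower and 6.21% higher, with a median of -0.46. CFAP44, an axonemal protein, was at 0.19, 0.222 and 0.238 FPKM in D-2 and 1.21, 0.82 and 1.67 in FIT (log2 difference -2.33 ± 0.28, adjusted p = 0.00261), and CCDC40, which sets the spacing of axonemal arms, at 0.252, 0.375 and 0.33 FPKM and 1.6, 1.12 and 1.19 (log2 difference -1.87 ± 0.23, adjusted p = 0.00284). The count was 4, 6 and 7 without D-2 replicates 1, 2 and 3, 6 without FIT replicate 1, 3 with quantile normalization and 1 among genes of at least 1 FPKM. Of 48 genes of Hedgehog signaling and the primary cilium, 2 were higher and 2 lower. SMO, the Hedgehog signal transducer, was at 2.32, 1.97 and 2.66 FPKM against 1.03, 0.959 and 1.41 (log2 difference 1.19 ± 0.22, adjusted p = 0.00851), and HHIP, its feedback inhibitor, at 4.66, 5.78 and 4.36 FPKM against 0.872, 1.91 and 2.55 (log2 difference 1.62 ± 0.37, adjusted p = 0.0159). HHIP lost its call without D-2 replicate 2 (adjusted p = 0.0536). The list of Wnt genes gave 0 higher and 1 lower of 22, while the larger Wnt signaling pathway gave 5 higher and 7 lower of 112. The secreted Wnt inhibitor DKK1, which that list leaves out, was among the 10 DEGs higher in D-2 with the largest differences by the rule for named genes, at 53, 52.4 and 43.2 FPKM against 2.65, 3.34 and 4.14 (log2 difference 4.03 ± 0.20, adjusted p = 0.000481). Notch genes gave 0 higher and 2 lower of 13, among them LFNG, which modifies Notch receptors, at 0.663, 0.927 and 0.938 FPKM against 3.25, 2.47 and 3.71 (log2 difference -1.73 ± 0.24, adjusted p = 0.00368).

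Metabolic genes differed by little one by one. Of 31 nuclear genes of the respiratory chain, 0 were DEGs in either direction by edgeR, while 22 passed an adjusted p of 0.05 upward in D-2 at any fold and 23 did not overlap, with a median of 0.46. Among protein-coding genes with a mean of 10 FPKM or more, 1548 of 3675 passed upward, with a median of 0.32. The 13 genes of the mitochondrial genome ran the other way, with 3 lower, 0 higher and a median of -0.64. MT-CO3 was at 1894, 2559 and 3132 FPKM in D-2 and 5777, 5556 and 5988 in FIT (log2 difference -1.04 ± 0.18, adjusted p = 0.00751), and MT-ATP8 at 3522, 4527 and 6801 FPKM and 13374, 12281 and 15123 (log2 difference -1.30 ± 0.24, adjusted p = 0.0081). In these the 3 D-2 libraries themselves differed, replicate 1 being lowest and replicate 3 highest, and 1 of the 13 was a DEG without D-2 replicate 1, where MT-CO3 was at -0.87. Glycolysis had 2 of 21 higher and 0 lower (median 0.51), LDHB, lactate dehydrogenase B (log2 difference 1.02 ± 0.11, adjusted p = 0.00205), and SLC16A1, the lactate transporter MCT1 (log2 difference 1.06 ± 0.13, adjusted p = 0.00273). LDHB was at 225, 210 and 216 FPKM against 109, 117 and 132 and SLC16A1 at 23, 23.9 and 28.5 FPKM against 14.6, 11.3 and 14.6. Both fell just under 2-fold in 2 of the leave-outs, LDHB to 0.99 without D-2 replicate 1 and 0.91 without FIT replicate 1, SLC16A1 to 0.95 without D-2 replicate 3 and 0.94 without FIT replicate 2. Cholesterol synthesis had 2 higher and 1 lower of 23 (median 0.51). SC5D, a sterol desaturase, was at 2.87, 2.83 and 2.8 FPKM against 0.709, 1.54 and 1.33 (log2 difference 1.39 ± 0.29, adjusted p = 0.0122), and TM7SF2, a sterol reductase, at 0.677, 0.877 and 0.744 FPKM against 2.86, 1.7 and 2.73 (log2 difference -1.49 ± 0.26, adjusted p = 0.00683). CPT1B, the muscle form of the carnitine transferase that lets fatty acids into mitochondria, was at 0.839, 0.989 and 0.747 FPKM against 4.43, 2.07 and 3.37 (log2 difference -1.76 ± 0.29, adjusted p = 0.00561), the 1 DEG of 17 in fatty acid oxidation.

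Cytokine genes differed in both directions. Of 128 tested genes of cytokine and cytokine receptor interaction, 28 were lower (21.9%) and 10 higher (7.81%), beside 10.8% and 3.83% of all genes, so that the balance of directions was like that of all genes. Of the 28 tested genes of the list of chemokines, interleukins and NF-κB targets, 4 were higher and 3 lower, with 2 higher and 1 lower without any 1 D-2 library and 1 lower without FIT replicate 1. TNFRSF13C, the receptor for BAFF, was at 0.165, 0.427 and 0.256 FPKM in D-2 and 1.93, 3.75 and 1.89 in FIT (log2 difference -3.02 ± 0.47, adjusted p = 0.00499), and CD40LG, the ligand of CD40, at 0.101, 0.0452 and 0.198 FPKM and 1.15, 0.991 and 1.46 (log2 difference -3.19 ± 0.56, adjusted p = 0.0071). TNFRSF11B, the decoy receptor osteoprotegerin of bone remodeling, was at 1.24, 0.909 and 0.534 FPKM against 9.48, 6.1 and 2.2 (log2 difference -2.57 ± 0.55, adjusted p = 0.0138). Those higher in D-2 included IL24, a cytokine of the interleukin-10 family, at 2.19, 1.66 and 2.59 FPKM against 0.304, 0.43 and 0.334 (log2 difference 2.70 ± 0.32, adjusted p = 0.00257), and CSF1, the growth factor of macrophages, at 30.9, 32.8 and 28.4 FPKM against 17.4, 15.5 and 14.5 (log2 difference 1.11 ± 0.11, adjusted p = 0.00184). CSF1R, the receptor of CSF1, was at 1.8, 1.79 and 1.85 FPKM against 0.725, 0.613 and 0.773 (log2 difference 1.52 ± 0.18, adjusted p = 0.00268), and so ligand and receptor were both higher in the flat culture, which had no macrophages. CD180, a toll-like receptor relative, was at 0.35, 0.287 and 0.202 FPKM against 4.46, 3.64 and 2.54 (log2 difference -3.50 ± 0.31, adjusted p = 0.00162), and CD24, a surface sialoprotein, at 6.93, 4.42 and 7.19 FPKM against 57.8, 35.6 and 19.2 (log2 difference -2.44 ± 0.40, adjusted p = 0.00575). Both were as low in D-3 and DP-3 as in D-2 or lower, CD24 at 4.53 and 4.9 FPKM. Without D-2 replicate 3 the log2 difference of CD40LG was -3.82, and TNFRSF11B lost its call without D-2 replicate 2 (adjusted p = 0.0511).

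Genes of lipid mediators included DEGs in both directions. Of 25 genes of arachidonic acid metabolism, 8 were lower and 2 higher (32.0% and 8.0%, median -0.01). These shares stand beside 10.8% and 3.83% of all genes. Of the 14 tested genes of the prostaglandin list, 3 were lower and 2 higher (21.4% and 14.3%, median -0.01), with 1 lower without D-2 replicates 1 or 2. PTGDR2, a receptor for prostaglandin D2 on that list, was at 0.0147, 0.117 and 0.206 FPKM in D-2 and 6.06, 4.06 and 11.4 in FIT (log2 difference -5.78 ± 0.82, adjusted p = 0.0039), and GGT5, which converts leukotriene C4, at 0.0785, 0.0528 and 0.0525 FPKM and 3.61, 2.66 and 0.78 (log2 difference -5.05 ± 0.61, adjusted p = 0.00263). GGT5, 1 of the 8 lower in the pathway, passed the filter on low values through FIT alone. Its call is therefore no support for a difference in lipid mediators. TBXAS1, thromboxane synthase, was at 0.357, 0.368 and 0.431 FPKM against 2.34, 2.78 and 0.701 (log2 difference -2.18 ± 0.49, adjusted p = 0.0153). The enzyme that releases arachidonic acid was higher, PLA2G4A at 1.63, 1.84 and 1.99 FPKM against 0.0737, 0.0655 and 0.602 (log2 difference 3.14 ± 0.84, adjusted p = 0.0285). PLA2G4A lost its call without any library but FIT replicate 3 (adjusted p 0.0664 to 0.0725), without which the log2 difference was 4.75. TBXAS1 lost its call without D-2 replicates 1 or 2 (0.0582 and 0.0564), and PTGDR2 was at -6.54 without D-2 replicate 3. In complement and coagulation, 2 of 25 were higher and 5 lower. PLAT, tissue plasminogen activator, was at 3.96, 3.74 and 3.79 FPKM against 17, 16.2 and 24.7 (log2 difference -2.17 ± 0.17, adjusted p = 0.00145), and CFB, complement factor B, at 2.75, 3.07 and 3.25 FPKM against 18.1, 10.6 and 5.84 (log2 difference -1.77 ± 0.36, adjusted p = 0.0119).

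Guidance and adhesion genes were mixed. Of 35 axon guidance genes, 4 were higher and 7 lower (median 0.31), and without FIT replicates 1 and 3 the number higher was 2 and 9. The ephrin receptor EPHB1 was at 3.92, 3.75 and 3.33 FPKM in D-2 and 0.822, 0.791 and 1.84 in FIT (log2 difference 1.84 ± 0.33, adjusted p = 0.0077), and EPHB2 at 12.6, 13.1 and 12.1 FPKM and 6.78, 6.34 and 5.92 (log2 difference 1.14 ± 0.09, adjusted p = 0.00159). EPHB6, which lacks kinase activity, ran opposite, at 4.0, 3.55 and 3.58 FPKM against 20.7, 20.9 and 8.51 (log2 difference -2.02 ± 0.33, adjusted p = 0.00601). SEMA5A, a semaphorin, was at 6.73, 6.93 and 7.32 FPKM against 28.4, 20.4 and 14.1 (log2 difference -1.43 ± 0.23, adjusted p = 0.00561), and the semaphorin receptor PLXNB1 at 0.484, 0.569 and 0.612 FPKM against 1.61, 1.93 and 1.63 (log2 difference -1.48 ± 0.18, adjusted p = 0.00284). In the pathway of cell adhesion molecules 14 of 65 were lower and 12 higher. Among mesenchymal transcription factors and their markers, 3 of 18 were higher and 3 lower. SNAI1, which represses epithelial genes, was at 11.6, 11 and 10.8 FPKM against 3.42, 4.56 and 6.04 (log2 difference 1.41 ± 0.22, adjusted p = 0.00526), FOXF2 at 8.7, 7.6 and 8.02 FPKM against 2.78, 2.94 and 4.95 (log2 difference 1.35 ± 0.24, adjusted p = 0.00734), and TBX2, a T-box repressor, at 1.94, 2.04 and 1.78 FPKM against 12.3, 13 and 2.5 (log2 difference -2.13 ± 0.55, adjusted p = 0.0255). TBX2 lost its call without any library but FIT replicate 3 (adjusted p 0.0727 to 0.0796). The number of members lower in D-2 was 0 without any 1 D-2 library and 1 without FIT replicates 1 or 2.

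Among signaling pathways with many DEGs higher in D-2, 9 of 39 genes of gastric acid secretion and 8 of 43 of renin secretion were higher, with 3 and 4 lower. These pathways list calcium and cyclic nucleotide signaling in general. EDN1, the vasoconstrictor endothelin-1, was at 5.13, 4.51 and 3.06 FPKM in D-2 and 0.832, 0.274 and 0.414 in FIT (log2 difference 3.20 ± 0.44, adjusted p = 0.00366), and ITPR2, a calcium release channel, at 3.31, 3.71 and 3.39 FPKM and 0.678, 0.828 and 1.08 (log2 difference 2.16 ± 0.19, adjusted p = 0.00159). The water channel AQP1 was lower, at 0.49, 0.138 and 0.155 FPKM against 5.11, 2.4 and 3.25 (log2 difference -3.60 ± 0.56, adjusted p = 0.00503), at -4.41 without D-2 replicate 1. Other pathways with large shares higher were vitamin digestion and absorption (4 of 15, 1 lower), steroid biosynthesis (4 of 18, 2 lower), hematopoietic cell lineage (8 of 40, 5 lower) and olfactory transduction (6 of 32, 2 lower). On the lower side were taste transduction (7 of 19, 2 higher), protein digestion and absorption (11 of 43, 5 higher), which holds the collagens, and serotonergic synapse (12 of 58, 5 higher). In taste transduction GABBR1, a GABA receptor subunit, was at 1.44, 1.67 and 1.75 FPKM against 5.57, 5.28 and 4.94 (log2 difference -1.54 ± 0.13, adjusted p = 0.00156) and GABRA3 at 0.568, 0.371 and 0.549 FPKM against 1.83, 2.23 and 1.46 (log2 difference -1.75 ± 0.29, adjusted p = 0.00602). In vitamin absorption the lipoprotein receptor SCARB1 was at 6.94, 7.79 and 7.64 FPKM against 1.75, 2.71 and 2.93 (log2 difference 1.75 ± 0.21, adjusted p = 0.00259), and TCN2, which carries vitamin B12, at 1.52, 2.06 and 1.73 FPKM against 6.54, 7.39 and 4.7 (log2 difference -1.66 ± 0.23, adjusted p = 0.0038).

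Families that share a symbol stem gave further groups, of 97 with at least 15 genes tested. Among kinesins, 4 of 29 were higher and 1 lower. KIF14, of cytokinesis, was at 7.47, 6.8 and 6.52 FPKM in D-2 and 2.78, 3.0 and 3.95 in FIT (log2 difference 1.25 ± 0.15, adjusted p = 0.00268), KIF20B at 8.69, 9.44 and 8.54 FPKM and 3.63, 4.29 and 5.01 (log2 difference 1.20 ± 0.14, adjusted p = 0.00249), and KIF9, which is known from cilia, at 0.695, 0.913 and 0.577 FPKM and 2.17, 1.71 and 2.52 (log2 difference -1.39 ± 0.24, adjusted p = 0.0068). The mitotic motors and the ciliary one thus took opposite directions. Of 29 proteins of the small mitochondrial ribosome subunit, 4 were higher and 0 lower with a median of 0.63, and of 31 subunits and partners of RNA polymerases 4 and 0 with a median of 0.39. POLR3G, of RNA polymerase III, was at 8.71, 8.51 and 8.5 FPKM against 2.28, 3.67 and 3.62 (log2 difference 1.57 ± 0.21, adjusted p = 0.00343), and POLR1E, of RNA polymerase I, at 16.9, 15.2 and 14.7 FPKM against 6.84, 8.67 and 7.46 (log2 difference 1.17 ± 0.15, adjusted p = 0.0028). On the lower side, 4 of 16 syntaxins were lower and 0 higher. STX1A, a fusion protein of secretory vesicles, was at 7.05, 7.26 and 7.39 FPKM against 19.5, 22 and 17.5 (log2 difference -1.29 ± 0.13, adjusted p = 0.00184). Of 17 dual-specificity phosphatases 4 were lower and 1 higher. DUSP16 was at 1.07, 1.09 and 1.1 FPKM against 3.46, 3.11 and 3.39 (log2 difference -1.46 ± 0.12, adjusted p = 0.00159), and DUSP10 at 17.6, 16.5 and 17.4 FPKM against 8.04, 5.33 and 8.57 (log2 difference 1.39 ± 0.17, adjusted p = 0.00259). Of 15 F-box proteins with leucine-rich repeats 3 were lower and 0 higher, with FBXL8 at 0.615, 0.999 and 1.01 FPKM against 3.7, 4.11 and 4.08 (log2 difference -2.02 ± 0.25, adjusted p = 0.0028). The cytochrome P450 family had 5 of 16 lower and 1 higher, and the ankyrin repeat family 9 of 41 and 3.

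Genes outside the protein-coding set and genes at low levels were lower more often. Antisense genes were lower in 312 of 1522 (20.5%) and higher in 25 (1.64%), with a median of -1.0. Long intergenic RNAs were lower in 199 of 1173 (17.0%) and higher in 36, with a median of -0.78, and sense intronic RNAs lower in 44 of 256 (17.2%) and higher in 0. Processed pseudogenes, with 74 of 1260 lower (5.87%) and 28 higher, stood at a median of 0.04. The counting was not stated to use strand, so reads of a gene and its antisense partner cannot be told apart. Level and direction went together within the protein-coding genes. Below a mean of 1 FPKM 19.4% of 2720 were lower and 6.21% higher, between 1 and 10 FPKM 7.01% of 6617 were lower and 4.34% higher, and from 10 FPKM upward 2.69% of 3675 were lower and 4.73% higher. Antisense genes between 1 and 10 FPKM were nevertheless lower in 31.0% of 300, more than antisense genes below 1 FPKM (17.7% of 1207). More genes reached 0.1 FPKM in the FIT libraries (19969 to 21750) than in the D-2 libraries (17716 to 18109).

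**Figure D5:**
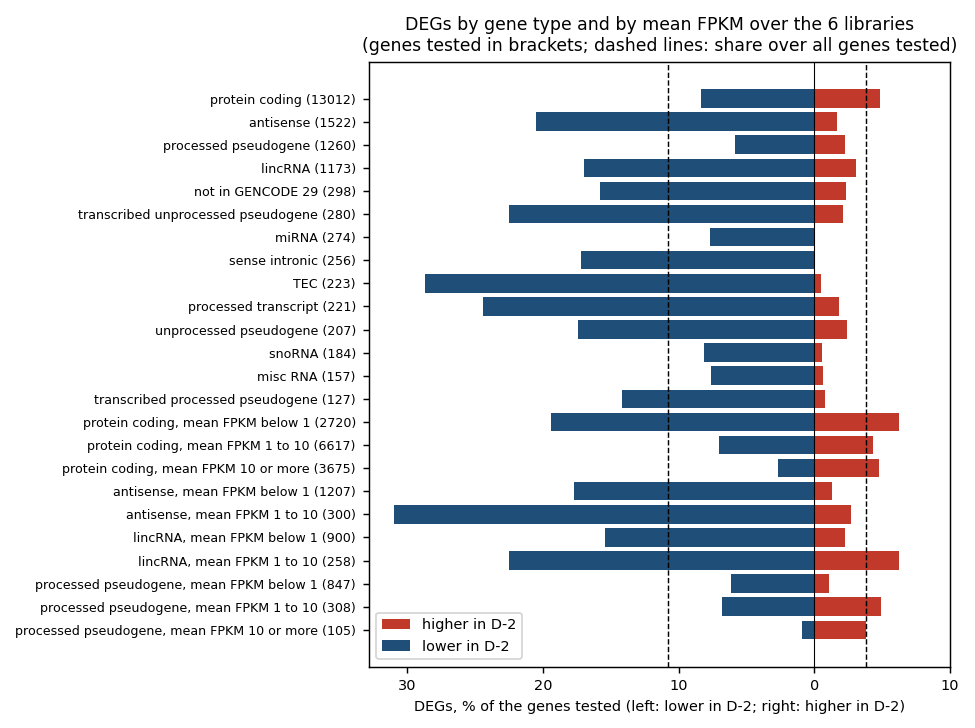
Share of genes lower (left) and higher (right) in D-2, in percent, by gene type of GENCODE 29 and by mean FPKM over the 6 libraries, with the number tested in brackets and the shares over all genes as dashed lines. Antisense genes (20.5%) and genes of the class TEC, whose status is unsettled (28.7%), reach far to the left, and protein-coding genes of at least 10 FPKM (2.69%) stay close to 0.

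Host cells can add to the tumor values, and their markers were read in the same libraries. Of 19 macrophage markers, 7 were tested, 2 of which were higher and 1 lower in D-2. TYROBP and the C1q chains C1QA, C1QB and C1QC were listed at 0 in all 6 libraries, and PTPRC was at most 0.0141 FPKM. The 1 that was lower was SPI1, the transcription factor PU.1, at 0 in each D-2 library and 1.29, 1.78 and 21 FPKM in FIT, with FIT replicate 3 far above the others. It passed the filter on low values through FIT alone, and with any 1 FIT library left out it no longer passed, so its call is no support for a difference in macrophage markers. Summed macrophage markers were 48.9 to 51.8 FPKM in D-2 and 46.6 to 63.4 in FIT. Of 16 endothelial markers, 9 were tested and 4 were lower in D-2, with sums of 64.5 to 65.9 FPKM in D-2 and 64.8 to 77.3 in FIT. CDH5, the cadherin of vessels, was at 0.0762, 0.0522 and 0.104 FPKM against 1.11, 0.516 and 0.343 (log2 difference -2.90 ± 0.52, adjusted p = 0.00768), and PECAM1 at 1.55, 1.41 and 1.42 FPKM against 4.46, 2.93 and 3.4 (log2 difference -1.14 ± 0.16, adjusted p = 0.00401), while VWF and KDR were at or below 0.0154 FPKM in all 6 libraries. Summed fibroblast markers were 16.2 to 17.8 FPKM in D-2 and 24.9 to 31.1 in FIT, and summed muscle markers 46.5 to 52.2 and 49.4 to 139. Of 12 fibroblast markers tested, 2 were higher and 1 lower in D-2 (median -0.06), and of 8 muscle markers 0 and 3. In D-3 and DP-3, which had no host, macrophage sums were 67.6 to 92.5 and 53.5 to 121 FPKM. Endothelial sums there were 68.5 to 75.1 and 59.6 to 81.3 FPKM. Fibroblast sums there were 9.02 to 9.63 and 15.5 to 19.2 FPKM, and muscle sums 57.0 to 62.2 and 40.2 to 44.2. No red blood cell marker was tested. Whether mouse reads were removed is not stated, and their part in the genes lower in D-2 was not tested.

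The average of D-3 and DP-3 offers a reference without a host, which shares the D-2 libraries with the comparison above. In that comparison 120 of 24337 genes were higher and 930 lower in D-2. Mitosis had 3 of 26 higher and 0 lower there (median 0.74 on the log2 scale), YAP/TEAD targets 2 of 19 higher and 0 lower (0.58), and the TGF-β list 2 higher and 3 lower of 20. Collagens had 1 higher and 2 lower of 26, keratins 0 and 0 of 15, NRF2 targets 0 higher and 4 lower of 21, and the heat shock list 0 and 0 of 15. CCN2 and THBS1 were among those higher in D-2 in both comparisons, with log2 differences to the 3D average of 1.82 ± 0.21 and 2.25 ± 0.23. Their adjusted p values there were 0.00121 and 0.000955. FST stood at 1.5 ± 0.20 and TAGLN at 1.84 ± 0.15. The total of DEGs in that comparison was 180, 261 and 475 without D-2 replicates 1, 2 and 3, and 690 without D-3 replicate 1, against 1050 with all libraries.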

How the data were processed

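Poly(A) RNA of the 6 libraries was sequenced as read pairs. Per the submitters' processing notes the authors used cutadapt 1.9, HISAT2 2.0.4 and StringTie 1.3.4d, and deposited, for each gene and library, an FPKM value and an estimated count. The estimated counts are whole numbers derived from coverage and run at several per read pair. The counting tool, its strand setting, the genome build and any removal of mouse reads are not given in the sources used here. Gene positions were checked against GENCODE 29, where 48223 of 50119 genes were found and 99.81% of them overlapped.

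Genes that reached 0.1 FPKM in 3 or more libraries entered the test on estimated counts, made with edgeR 4.0.16 (R 4.3.3, TMM scaling, quasi-likelihood test, Benjamini-Hochberg over all genes). On simulated data for D-2 against FIT (19511 genes, 200 changed), 126 of the 200 changed genes were recovered, with 10 false calls. Of the 130 changed 4-fold or more, 94 were recovered, so smaller changes were missed more often. Where no library of a group exceeded 12 estimated counts, the fold is given as a bound. The comparison with D-3 and DP-3 used their average.

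The gene lists and the members described were chosen with earlier results of these data known. Named were the 10 genes with the largest change in each direction among those with over 12 counts in every library, a mean of at least 5 FPKM in the higher group and no overlap, and in each list, pathway or family up to 4 DEGs in each direction, plus genes that complete a set. Genes the study itself names are not described, with 1 exception (DKK1). Some genes that met the rule are not reported here. Pathways are those of the deposited annotation, and families share a symbol stem. Of the 204 pathways and 97 families with at least 15 tested genes, those with the largest shares of DEGs were described. Promoters came from RefSeq. Alternatives were DESeq2 1.42.0, limma 3.58.1 on log2 FPKM, other scalings and filters, a replicate block, and leaving out each library.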

Additional observations from a re-analysis of the deposited data

How the results depend on the processing

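FIT replicate 3 had 23721666 estimated counts, and a gene at the limit of 12 counts stood at 0.506 CPM in it, so low genes are least certain there. With 3 libraries in each group an exact permutation test cannot go below p = 0.1, and the calls rest on the spread that edgeR shares among genes.

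The number of genes higher in D-2 was 747, and it was 360 with an FPKM minimum of 1, where fewer genes were tested (12056), and 201 with limma on log2(FPKM + 1). With a library left out it ranged from 478 to 1004. The number lower was 2099, and it was 1242 with an FPKM minimum of 1, 704 with limma on log2(FPKM + 1) and 1227 with quantile normalization, and with a library left out it ranged from 1204 to 1976. The comparison of D-2 with the average of D-3 and DP-3 gave 1050 DEGs, 1993 with DESeq2, and 180 to 1184 with a library left out. The cause was not tested, apart from the fewer genes under the stricter minimum. With a replicate block the counts were 721 higher, 1456 lower and 871. Samples with the same number did not deviate together (correlations between -0.0259 and 0.00243), so that they share only a number.

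Of the 165 DEGs named, 134 kept their call in each leave-out where they could be tested and 31 lost it in at least 1 case. None of these 165 DEGs changed direction under the alternatives run. DESeq2 left 162 of the 165 past the threshold, quantile normalization 138, limma on log2(FPKM + 0.1) 151, limma on log2(FPKM + 1) 119 and the replicate block 160.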
